A study of Mus musculus with 7 samples.

Results

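Transcripts of 9 genes that restrain MAP kinase and cytokine signals were followed in cells sorted as haematopoietic stem cells (HSCs) from mouse bone marrow. They were chosen by name, with earlier results of these data known. They comprise the dual-specificity phosphatases Dusp1, Dusp2, Dusp4, Dusp5, Dusp6 and Dusp10 and the RNA-decay factors Zfp36, Zfp36l1 and Zfp36l2. All 9 are among the 28786 genes of the count table, and all 9 passed the filter on low counts that left 14226 genes for testing. The 4 MC38 libraries came from mice labelled as bearing MC38 colon cancer, a transplantable mouse carcinoma line, in the C57BL/6J strain. The control libraries came from normal mice that carried no tumour label. Every library was made from 1500 sorted cells of mice aged 6 to 8 weeks. The sources used here do not give the sort gate, the way the tumour was given, its stage or whether each library was a separate mouse, so the spread between libraries may be partly technical.

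The comparison touches on the question of whether tumour growth turns HSCs towards making myeloid cells. Such a turn was not tested here. MAP kinases carry growth factor, cytokine and stress signals to the nucleus, and the dual-specificity phosphatases end the signal by removing phosphate from both the threonine and the tyrosine of the activated kinase. Many of these phosphatases are themselves induced by the kinases they switch off, which makes them a negative feedback. The Zfp36 proteins bind AU-rich elements in 3′ untranslated regions (UTRs) and recruit the deadenylation machinery, so that short-lived cytokine and immediate early transcripts are cleared. In mice, loss of Zfp36 causes a systemic inflammation driven by tumour necrosis factor, and loss of Zfp36l2 leads to failure of blood formation.

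The promoters of 3 members are shown because they belong to the most abundant phosphatase, the most abundant decay factor and the member whose groups lay farthest apart. They are RefSeq windows of GRCm38.p6 (the mm10 assembly), from 250 bases before to 50 bases after the annotated start, and capitals mark the matches to a cyclic AMP response element (CRE, TGACGTCA) or to a CArG box, the site type bound by serum response factor.
Dusp1, chr17:26508423-26508722, minus strand: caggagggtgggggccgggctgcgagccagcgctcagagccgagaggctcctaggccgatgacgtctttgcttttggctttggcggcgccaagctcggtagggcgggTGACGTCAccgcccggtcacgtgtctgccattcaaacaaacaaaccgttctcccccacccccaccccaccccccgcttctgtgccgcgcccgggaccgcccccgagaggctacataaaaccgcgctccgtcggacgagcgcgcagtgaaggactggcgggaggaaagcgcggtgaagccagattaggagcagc
Zfp36, chr7:28379179-28379478, minus strand: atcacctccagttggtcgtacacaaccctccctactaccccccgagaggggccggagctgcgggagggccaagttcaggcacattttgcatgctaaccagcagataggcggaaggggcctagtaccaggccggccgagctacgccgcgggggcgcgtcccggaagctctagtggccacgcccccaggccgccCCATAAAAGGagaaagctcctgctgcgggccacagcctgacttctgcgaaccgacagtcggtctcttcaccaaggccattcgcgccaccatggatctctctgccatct
Dusp5, chr19:53528895-53529194, plus strand: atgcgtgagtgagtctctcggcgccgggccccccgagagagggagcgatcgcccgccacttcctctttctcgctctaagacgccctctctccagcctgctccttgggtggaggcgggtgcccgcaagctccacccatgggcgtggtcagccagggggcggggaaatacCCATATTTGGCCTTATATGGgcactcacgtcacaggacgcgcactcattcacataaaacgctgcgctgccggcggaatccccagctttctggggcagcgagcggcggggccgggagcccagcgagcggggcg
Dusp1 had a CRE match starting 143 bases upstream, which was present in 1.79% of all 32851 promoter windows. Zfp36 had a CArG match 58 bases upstream and Dusp5 had an adjoining pair that start 82 and 72 bases upstream, a motif found in 1.63% of windows. Of the 7 members with a promoter entry, Dusp1 alone matched the CRE, and Zfp36 and Dusp5 alone matched the CArG box. Zfp36l1 was the single member to match the AP-1 site TGANTCA (7.81% of windows) and the TATA motif TATAAA (13.6%). The GC box GGGCGG was in 5 of the 7, against 35.7% of windows. Both strands were searched, and GC boxes are not marked. GENCODE M21 places the 5′ end of Zfp36 upstream of the RefSeq start used for its window. Dusp4 and Zfp36l2 have no entry in the promoter table.

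The Zfp36 proteins prefer the sequence TTATTTATT, and the members themselves were searched for it. In the principal GENCODE M21 transcripts, the 3′ UTR of Dusp1, Zfp36, Zfp36l1 and Zfp36l2 each held this motif of 9 bases, and a window of 30 bases around the first match is shown with the motif in capitals, in DNA letters.
Dusp1: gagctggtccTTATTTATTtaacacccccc
Zfp36: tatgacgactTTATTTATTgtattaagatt
Zfp36l1: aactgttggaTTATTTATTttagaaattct
Zfp36l2: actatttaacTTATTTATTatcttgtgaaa
These sites start at bases 103, 589, 1404 and 821 of the 3′ UTR of Dusp1, Zfp36, Zfp36l1 and Zfp36l2, counted from the base after the stop codon. Dusp2 held only the shorter core TATTTAT, once, and Dusp4, Dusp5, Dusp6 and Dusp10 held neither form. The 9-base motif was thus in 4 of 9 members, against 6.89% of the 7276 coding genes whose 3′ UTR lies in the same length range, 581 to 1835 bases. A match is a description of the letters and no measure of binding.

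The tested MC38 libraries held 13368238 to 17657037 counts and the control libraries 12131546 and 12306066. A further control column, replicate 3, is deposited, but over 9692 genes with at least 200 counts in the other controls its median ratio to their sum was 0.353, with 95% of genes between 0.341 and 0.371. For the 9 members this ratio ran from 0.347 to 0.362. The column was not treated as independent, and values below come from 4 MC38 and 2 control libraries unless stated. None of 12 HSC markers was at 0, and their summed level was 1487 to 1675 CPM (TMM-scaled counts relative to the library's total) in MC38 and 1621 and 1767 CPM in control libraries. The 11 neutrophil markers summed to more, 56610 to 64965 CPM in MC38 and 32321 and 33053 CPM in control libraries. Of these S100a8, S100a9, Ngp, Ltf, Lcn2, Retnlg and Mmp8 rose and Mpo fell, 7 and 1 (4 to 8 and 0 to 1 over the alternatives). Elane and Prtn3 were also lower at an unadjusted p under 0.05, a measure by which 8 neutrophil markers were higher and 3 lower. The summed level thus joins markers that moved in opposite directions. Of the other marker lists, 2 of 9 monocyte, macrophage and dendritic cell genes (C1qa and Siglech) and 1 of 6 B cell genes (Ighm) rose. With edgeR 0 of 12 HSC, 0 of 9 T and NK cell and 0 of 8 erythroid and megakaryocyte genes were called, where DESeq2 called 2, 2 and 1 and an unadjusted p under 0.05 was found for 2, 3 and 3. The part of the neutrophil and other mature cell markers in the results below was not tested, and in bulk samples fewer cells of a type and less RNA per cell cannot be told apart.

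No member passed the test of MC38 against control across all genes, and Dusp5, lower in MC38, came nearest. With edgeR's quasi-likelihood test and Benjamini-Hochberg adjustment, 0 of 9 were called higher and 0 of 9 lower at an adjusted p under 0.05, against a background of 1.04% of tested genes called higher, 0.569% called lower and 1.61% in either direction. At an unadjusted p under 0.05, 0 members were higher and 2, Dusp5 and Dusp2, were lower, where 9.26% and 8.22% of all genes were. DESeq2 called 1 member, Dusp5, lower, where it called 626 genes higher and 396 lower among all 14226 tested. The log2 fold change was above 0 for 2 members and below 0 for 7, with a median of -0.21. Over all tested genes the median was 0.01, and 50.9% were above 0. Among the 7, Dusp1 was at -5.42e-05, a sign without meaning, and Dusp6 and Dusp10 changed sign without control replicate 2. Together the 9 genes took 0.789 ± 0.023% of counts in MC38 and 0.796 ± 0.022% in control libraries (SD, n = 4 and 2).

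**Figure D1:**
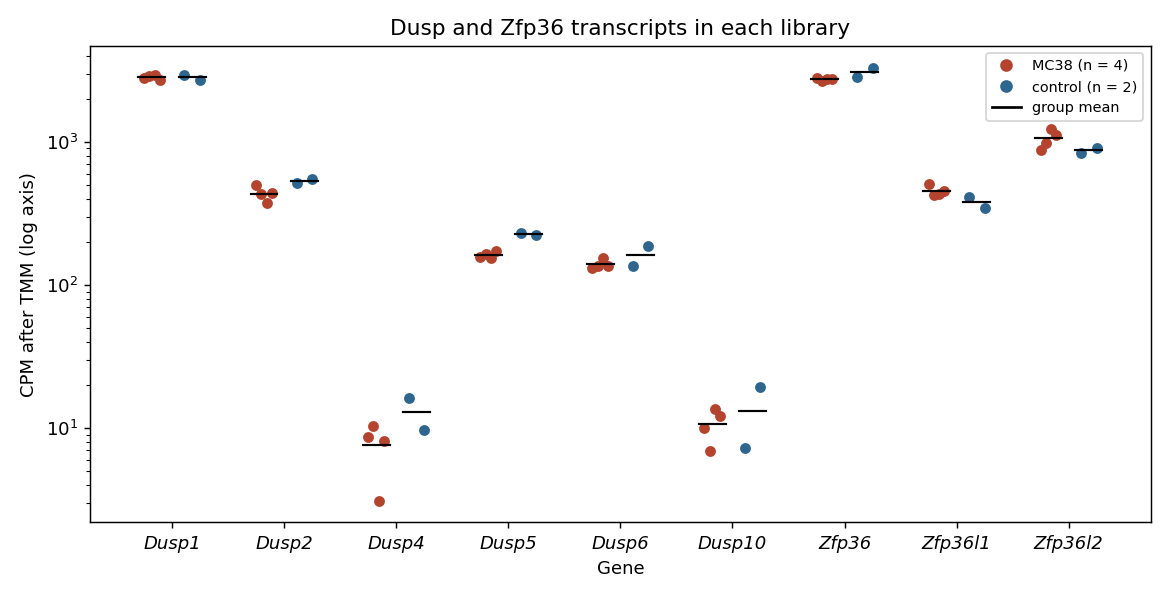
Each point is a library, on a log axis of CPM after TMM, with a bar at the group mean, for the 9 genes along the horizontal axis. Dusp1 and Zfp36 lie between 2675 and 3301 CPM in every library, Dusp4 and Dusp10 below 20 CPM, and the groups stand apart most clearly for Dusp5.

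The transcripts with the highest level were Dusp1 and Zfp36, at ranks 22 and 21 of all tested genes by mean CPM. Dusp1 (ENSMUSG00000024190, principal transcript on the minus strand at chr17:26505590-26508519) encodes a nuclear phosphatase of ERK, JNK and the p38 kinases and is a classical immediate early gene. It had 2783, 2872, 2950.0 and 2696 CPM in the MC38 libraries, against 2950.1 and 2701 CPM in the controls. The lowest and highest values of both groups nearly coincide. The ratio was 1.00-fold with a 95% interval of 0.856 to 1.17 (edgeR adjusted p = 1.00).

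Dusp2, also known as PAC-1 and first described in activated lymphocytes, is another nuclear phosphatase. It had 499, 429.6, 373 and 437 CPM in MC38, against 518 and 550.1 CPM in control libraries. All 4 MC38 libraries were below both controls, the nearest by little. The fold was 0.813 (95% interval 0.665 to 0.994), with an edgeR adjusted p of 0.271.

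Dusp5 (ENSMUSG00000034765, plus strand, chr19:53529109-53542431) encodes a nuclear phosphatase selective for ERK. It stood at 157, 164, 155 and 173 CPM in MC38 libraries, against 232 and 223 CPM in controls. The groups were separated by a gap wider than the range within either of them, and the means were 162 ± 8.24 and 227 ± 6.43 CPM (SD, n = 4 and 2). Dusp5 was at 0.714-fold of the control level (95% interval 0.603 to 0.847, log2 fold change -0.49, SE 0.11), and just missed the threshold with an edgeR adjusted p of 0.062. It passed with DESeq2 (adjusted p = 0.00213). It also passed in the 7-column edgeR fit (adjusted p = 0.00651), but that fit counts the control column that is not independent as a replicate. With 1 MC38 library left out it did not pass, at edgeR adjusted p from 0.0602 to 0.164. Without control replicate 1 its log2 fold change was -0.456, and without control replicate 2 it was -0.512. A gene on the opposite strand, AC137853.2, shares 547 exonic bases with Dusp5 in GENCODE M21 but is not among the counted genes. The strand setting of the counting is not given. If the counting was unstranded, reads of AC137853.2 could have been counted for Dusp5.

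Dusp6, the cytoplasmic phosphatase of ERK, had 131, 137, 155 and 137 CPM in MC38, against 136 and 188 CPM in control libraries. The MC38 libraries lay around the lower control, and the higher control stood above all of them. The fold was 0.865 (95% interval 0.685 to 1.09, edgeR adjusted p = 0.526). Without control replicate 2 the log2 fold change was 0.05, on the other side of 0.

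The remaining phosphatases had the lowest levels among the members. Dusp4, a nuclear phosphatase, had 8.68, 10.4, 3.12 and 8.06 CPM in MC38 libraries, against 16.2 and 9.74 CPM in controls. Dusp10, which acts on JNK and p38 kinases, had 9.95, 6.91, 13.7 and 12.1 CPM in MC38 libraries, against 7.23 and 19.2 CPM in controls. In both genes the groups overlapped. The intervals of the fold were wide, 0.28 to 1.21 for Dusp4 and 0.409 to 1.59 for Dusp10 (edgeR adjusted p = 0.43 and 0.772). The counts behind these values were 56 to 152 in MC38 and 118 and 193 in control libraries for Dusp4, and 101 to 246 and 86 and 233 for Dusp10. Without control replicate 2 the log2 fold change of Dusp10 was 0.56 in place of -0.31.

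Zfp36 (ENSMUSG00000044786, minus strand, chr7:28376784-28380253) encodes tristetraprolin, the founding member of the decay factors. It had 2793, 2675, 2766 and 2736 CPM in MC38, against 2839 and 3301 CPM in control libraries. All MC38 libraries were below both controls, but control replicate 1 lay closer to every MC38 library than to the other control. The fold was 0.893 (95% interval 0.762 to 1.05, edgeR adjusted p = 0.455). Within MC38 this was the least variable member, with a coefficient of variation of 1.84%, against 10.6% in controls.

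The paralogues were on the other side of 0. Zfp36l1 (ENSMUSG00000021127, minus strand, chr12:80107754-80113013) had 504, 427, 429 and 451 CPM in MC38, against 413 and 347 CPM in control libraries. Every MC38 library was above both controls, the nearest by little, and the fold was 1.19 (95% interval 0.981 to 1.45, edgeR adjusted p = 0.333). Zfp36l2 (ENSMUSG00000045817, minus strand, chr17:84183931-84187947) had 878, 988, 1235 and 1123 CPM in MC38, against 840.3 and 899 CPM in control libraries. Here MC38 replicate 1 lay between the controls and the other 3 above them, with a fold of 1.21 (95% interval 0.97 to 1.52, edgeR adjusted p = 0.357). Antisense genes share exonic bases with each of the decay factor genes, most of all Gm26669 with 1672 bases of Zfp36l1. None of these antisense genes is among the counted genes, and unstranded counting could not separate their reads.

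**Figure D2:**
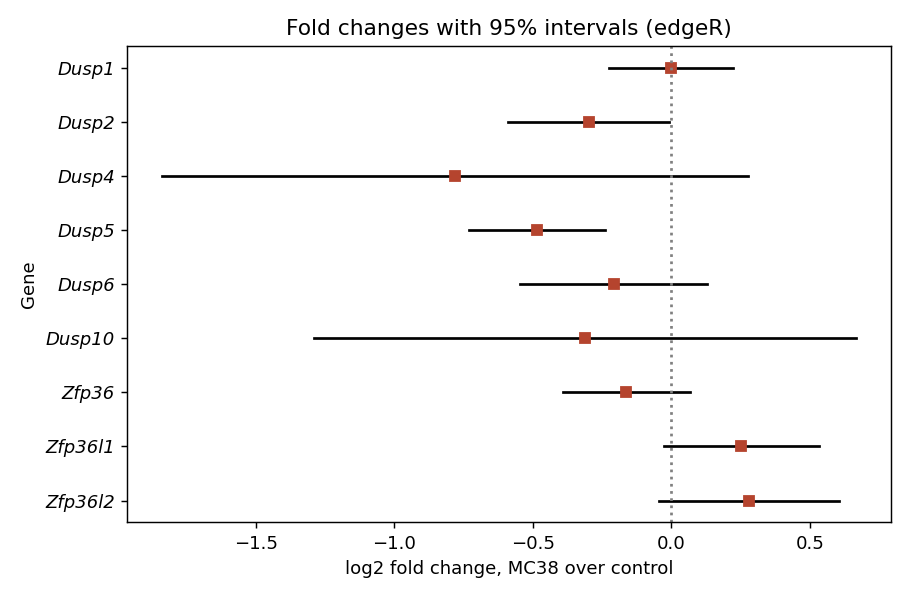
Squares give the log2 fold change of MC38 over control for each member and lines its 95% interval from the edgeR fit. The intervals of Dusp5 and Dusp2 lie below 0 and those of the other 7 members span it, with the widest for Dusp4 and Dusp10.

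Across the members, all 4 MC38 libraries were above both controls for 1 gene, Zfp36l1, and below both for 3, Dusp2, Dusp5 and Zfp36. Over all tested genes such separation was found for 14.0% upward and 15.0% downward, 29.0% in all. Exact permutation over the 15 ways to assign the libraries gave a two-sided p of 0.0667 for Dusp2, Dusp5 and Zfp36, the smallest this design can give, and p from 0.133 to 0.933 for the other 6. A p below 0.05 cannot be reached by such a test with 4 against 2 libraries.

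Ratios of 2 members within a library do not depend on library scaling. They were formed after the values were seen and are given without a test. The ratio of Zfp36l1 to Zfp36 counts was 0.18, 0.16, 0.155 and 0.165 in MC38 libraries, against 0.145 and 0.105 in controls. The ratio of Zfp36l2 to Zfp36 counts was 0.314, 0.369, 0.447 and 0.41 in MC38 libraries, against 0.296 and 0.273 in controls. In both, every MC38 library was above both controls. For Zfp36l1 this had to be so, since Zfp36l1 was above and Zfp36 below both controls in every MC38 library. The ratio of Dusp5 to Dusp1 counts averaged 0.0576 ± 0.0049 in MC38 and 0.0805 ± 0.0027 in control libraries (SD, n = 4 and 2), again without overlap. The ratio of Dusp2 to Dusp1 overlapped, at 0.126 to 0.179 in MC38 and 0.176 and 0.204 in control libraries. That of Dusp6 to Dusp1 did too, at 0.047 to 0.0525 in MC38 and 0.0459 and 0.0694 in control libraries. So did that of Dusp1 to Zfp36, at 0.985 to 1.07 in MC38 and 0.818 and 1.04 in control libraries.

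**Figure D3:**
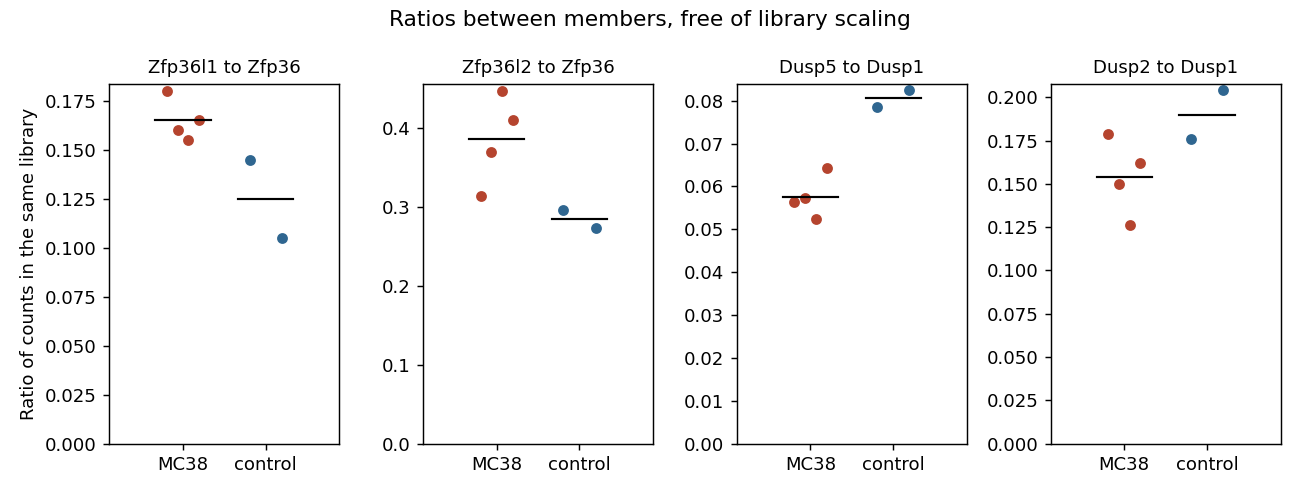
Each panel shows the ratio of the counts of 2 members in the same library on an axis from 0, with MC38 libraries left, control libraries right and a bar at the group mean. The Zfp36l1 to Zfp36 and Zfp36l2 to Zfp36 ratios are higher in all 4 MC38 libraries, the Dusp5 to Dusp1 ratio is lower in all 4, and the Dusp2 to Dusp1 ratio overlaps.

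Levels of different genes were compared per kilobase of the principal transcript. On this scale Dusp1 came first, with 1420 ± 55.3 in MC38 and 1420 ± 88.6 CPM per kilobase in control libraries. Zfp36 followed with 983 ± 18.1 in MC38 and 1100 ± 117 CPM per kilobase in control libraries (SD, n = 4 and 2). The length used for Zfp36 was the 2790 bases of its GENCODE M21 transcript, which begins upstream of the RefSeq start. A shorter transcript would give Zfp36 a higher value, so its order with Dusp1 depends on the annotation. Dusp2 and Zfp36l2 were next, and their order differed between the groups. In MC38 Dusp2 was at 269 ± 31.8 and Zfp36l2 at 299 ± 44.2 CPM per kilobase, within their spread. In control libraries Dusp2 was at 330.4 ± 13.9 and Zfp36l2 at 246 ± 11.8 CPM per kilobase, and both controls had more Dusp2. Zfp36l1 came after them, with 143 CPM per kilobase over the 6 libraries, ahead of Dusp5 with 74.4 and Dusp6 with 52.6. Dusp5 and Dusp6 were apart in every MC38 library, at 62.7 to 70.04 and 46.8 to 55.4 CPM per kilobase, and in both controls. Dusp10 and Dusp4, at 4.12 and 3.42 CPM per kilobase over the 6 libraries, overlapped and came last.

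The genes with the pattern most like that of Dusp1 over the 6 libraries were sought among 7060 genes of at least 20 CPM. Likeness was the root mean square difference of the centred log2(CPM + 0.5) values. Brd2 (0.0291), Gabarap (0.034), Rfxank (0.037), Tsc22d3 (0.0374) and Pfdn2 (0.0398) were nearest to Dusp1, where the median gene was at 0.24. For Zfp36 they were Vdac2 (0.0293), Lsm6 (0.0426), Erp29 (0.0437), Hmgb3 (0.046) and Serbp1 (0.0478), with a median of 0.25. These are descriptions over 6 libraries.

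Related genes were read from lists set by name. These lists and those in the paragraphs below were set with earlier results of these data known, so their counts are descriptive. Among 12 tested genes of the other dual-specificity phosphatases, 0 were called by edgeR in either direction (1 higher and 1 lower at an unadjusted p under 0.05, and by DESeq2 and every other alternative at most 1), with a median log2 fold change of 0.07. Among 26 genes of the MAP kinase cascade itself, which the phosphatases act on, 1 rose and 25 did not pass. At an unadjusted p under 0.05, 5 were higher and 1 lower, DESeq2 called 4 higher and 0 lower, and the 7-column fit 5 higher and 1 lower. The gene called was Mapk13, a p38 kinase, with 75.0 ± 14.1 CPM in MC38 and 33.2 ± 0.173 CPM in control libraries (2.26-fold, edgeR adjusted p = 0.0233). It did not pass when control replicate 1 (adjusted p = 0.2), control replicate 2 (0.126) or MC38 replicate 2 (0.0841) was left out, nor with limma-voom (adjusted p = 0.0529). Of 11 other feedback inhibitors of ERK signalling 0 were called by edgeR, with 0 higher and 1 lower at an unadjusted p under 0.05, and 1 lower with DESeq2. The lower one was Spry1, a Sprouty inhibitor of receptor tyrosine kinase signals, at 49.9 ± 5.46 CPM in MC38 and 86.2 ± 19.5 CPM in control libraries (edgeR adjusted p = 0.0642). Of 10 tested transcripts induced by ERK 0 were called by edgeR, with 2 higher and 2 lower at an unadjusted p under 0.05, and DESeq2 called 1 higher.

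On the decay side, 0 of 34 deadenylation, decapping and AU-rich element binding genes were called by edgeR, with 5 higher and 1 lower at an unadjusted p under 0.05. Their median log2 fold change was 0.07, and DESeq2 and the other alternatives called between 0 and 4 of them higher. Of 18 tested transcripts known as targets of the Zfp36 family, 1 rose and 17 did not pass. At an unadjusted p under 0.05, 5 were higher and 2 lower, and DESeq2 and the 7-column fit each called 3 higher and 1 lower. The gene called was Il1b, the inflammatory cytokine interleukin 1 beta, with 240 ± 33.3 CPM in MC38 and 99.4 ± 10.02 CPM in control libraries (2.41-fold, edgeR adjusted p = 0.00402). It lost the call without control replicate 1 (0.0665) or control replicate 2 (0.0759). Among the 17 that did not pass, Cxcl2 came nearest, with 300 ± 30.5 CPM in MC38 and 167 ± 51.1 CPM in control libraries (1.79-fold, edgeR adjusted p = 0.0552). Cxcl2 passed with DESeq2 (adjusted p = 0.000289) and limma-voom (0.0492), but not in edgeR with total counts only (0.054). The TATTTAT core was present in the 3′ UTR of 16 of the 20 listed targets, against 25.4% of all 21123 coding genes. The 9-base motif was in 9 of the 20, against 6.93% of these coding genes, which were not matched for length. The targets were listed as transcripts with AU-rich elements, so these shares follow from how the list was chosen and are no finding.

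Dusp1 and Zfp36 are usually counted among the transcripts that cells induce when a tissue is dissociated and sorted, and 31 other such transcripts were set beside them. Of these, 8 fell in MC38, 0 rose and 23 did not pass, with a median log2 fold change of -0.32. At an unadjusted p under 0.05, 3 were higher and 16 lower. DESeq2 called 2 higher and 13 lower, the 7-column fit 3 and 14, and the fit with no filter on low counts 2 and 12. The 8 were the immediate early factors Fosb, Atf3 and Jund, the Krüppel-like factors Klf4 and Klf6, and the chaperone genes Hspa1a, Hspa8 and Dnajb1. Fosb had 550.4 ± 4.86 CPM in MC38 and 1283 ± 69.4 CPM in control libraries (0.429-fold, edgeR adjusted p = 0.000256). Hspa1a had 14.5 ± 1.12 CPM in MC38 and 60.1 ± 2.4 CPM in control libraries (0.242-fold, edgeR adjusted p = 0.000532). The 31 transcripts summed to 27560 to 28088 CPM in MC38 and 34278 and 34496 CPM in control libraries, while the 9 members summed to 7710 to 8080 CPM in MC38 and to 7951 and 8237 CPM in control libraries. With a library left out, the number called lower was 2 for control replicate 1 and 3 for control replicate 2. It was 4 with MC38 replicate 2 left out and 5 with MC38 replicate 4 left out, but 9 with MC38 replicate 1 or MC38 replicate 3 left out. Fosb and Hspa1a were called in every alternative. Whether handling has a part in these values was not tested.

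**Figure D4:**
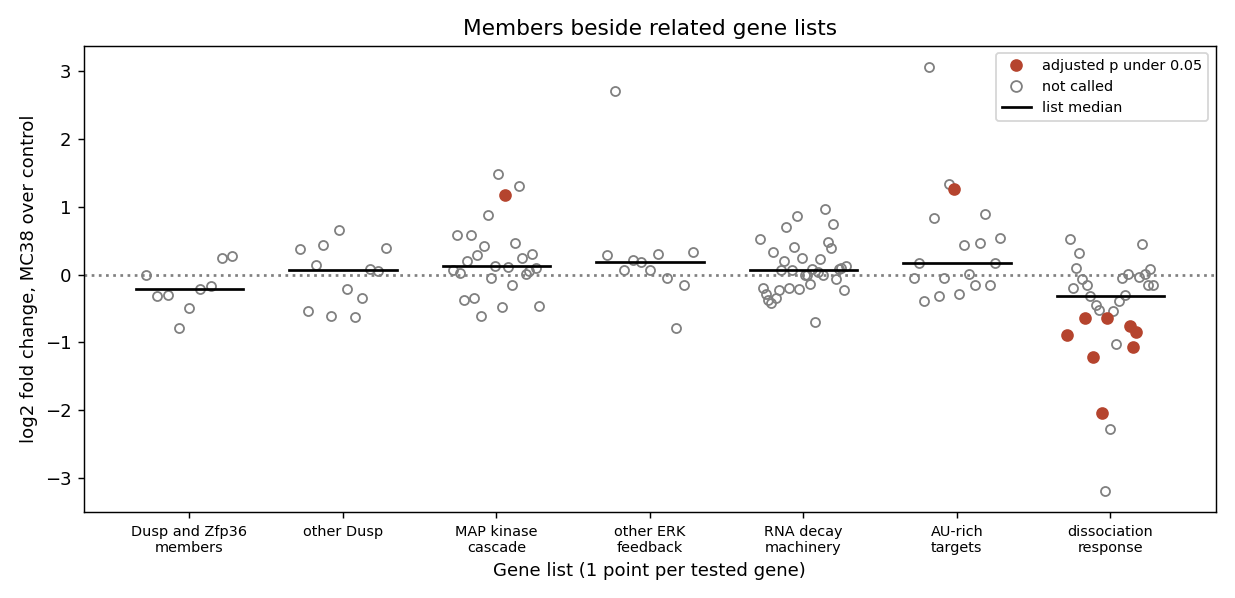
Each point is the log2 fold change of MC38 over control of a tested gene, filled where the adjusted p was under 0.05, and bars mark list medians. The members scatter between -0.78 and 0.28 with no filled point, while 8 filled points lie below 0 among the dissociation transcripts and 1 above 0 in each of the MAP kinase and AU-rich target lists.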

How the data were processed

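RNA sequencing counts of 7 deposited columns were read, 4 labelled MC38 and 3 control. The authors deposited whole-number read counts per Ensembl gene. Per the labels' protocols, polyadenylated RNA was reverse transcribed at low input and amplified with 12 PCR cycles, and no molecular identifiers are named. The submitters' processing notes name the build mm10, the counter HTSeq 0.10.0, the aligner STAR 2.6.1 and the trimmer Trim Galore 0.5.0. The sources used here do not give the strand setting or the annotation release. Symbols came from GENCODE M21, which named 27728 gene IDs, and promoters from RefSeq (GRCm38.p6).

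Counts were tested in edgeR 4.0.16 (R 4.3.3, limma 3.58.1 for voom, DESeq2 1.42.0 as an alternative) with TMM, filterByExpr, robust quasi-likelihood tests, Benjamini-Hochberg adjustment over all tested genes, a threshold of 0.05 and no block. The edgeR fit was tested on simulated data with larger fold changes than those of the members and a smaller dispersion than the common one here. That test does not show how well changes as small as those of the members are found. Control column 3 was left out. The members and lists were chosen with earlier results of these data known. The genes named are the members and, in each other list, those called and up to 4 of smallest p, and the 5 most like Dusp1 and Zfp36.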

Additional observations from a re-analysis of the deposited data

How the results depend on the processing

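The absence of called members held in the alternatives except for Dusp5. Members called lower numbered 1 with DESeq2, 1 with all 7 columns and 1 with the replicate block, and 0 without each library in turn. No member was called higher in any of the 13 alternatives. Over all genes, the number higher in MC38 was 148 and became 302 with no filter on low counts, 626 with DESeq2, 791 with all 7 columns, 269 with the replicate block and 44 to 259 when a library was left out. The number lower was 81 and became 202, 396, 663, 190 and 16 to 183 in the same alternatives. Control replicate 1 gave the lowest counts and MC38 replicate 1 the highest when left out. The cause was not tested. Of 117 member results, 102 kept direction and side of the threshold, 3 gained a call (Dusp5) and 12 changed sign. Dusp1 sits at 0, so its sign has no meaning: its log2 fold change was 0.00711 with DESeq2 size factors in edgeR, 0.0356 with total counts only, 0.00328 with no filter, 0.00712 with DESeq2, 0.00174 with limma-voom, 0.00315 with all 7 columns, 0.00234 with the replicate block and -0.0602 to 0.0653 without single libraries. Without single libraries Dusp6 ran from -0.424 to 0.0467 and Dusp10 from -0.851 to 0.562, with the positive values without control replicate 2. The labels do not say that a replicate number marks a shared mouse or day. Same-numbered deviations correlated at 0.138 for number 1 and -0.135 for number 2 across 7330 genes, but with 2 controls these deviations mirror each other, so the check cannot show whether the numbers pair. With the block the adjusted p of Dusp5 was 0.0441. Dusp4 and Dusp10 had the fewest counts of the members, 56 to 246 per library, and coefficients of variation of 27.5 to 41.3% in MC38 and 35.3 to 64.2% in control libraries, and the cause of that spread was not tested.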
